A study of Mus musculus with 6 samples.

Results

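Cells keep reactive oxygen and damaged thiols in check with 2 linked systems, glutathione and thioredoxin, and both draw their reducing power from NADPH. Cysteine made by transsulfuration or imported as cystine limits glutathione synthesis. Glutathione peroxidases and peroxiredoxins then use these thiols to remove peroxides, glutathione transferases attach glutathione to reactive compounds, and ferritin stores iron that would otherwise feed radical chemistry. Many of these genes are known targets of the transcription factor NRF2 (Nfe2l2), which KEAP1 holds at a low level until oxidants or electrophiles modify it. D-serine, the enantiomer of the common amino acid L-serine, can be oxidised by D-amino-acid oxidase, a reaction that yields hydrogen peroxide.

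The glutathione, thioredoxin and antioxidant genes described here are 40 genes listed by symbol, with no threshold on measured values, out of 24391 genes in the count table. They were chosen with earlier results of these data known. All 40 were found. The genes were measured in Neuro2a, a mouse neuroblastoma cell line, in 3 control samples that received vehicle and 3 samples that received D-serine at 5 mM. All 6 were kept for 18 h in a medium labelled D-MEM(-SG) with 10% serum, so medium, serum and time were the same in both groups. Nothing in the labels says that the replicates of a group came from separately thawed or separately plated cells, so p-values measure the spread between these samples, which may be technical. The whole design rests on 1 cell line. Of the 40 genes, 37 had enough counts to be tested.

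Total counts lay between 32518483 and 40024265 per library. D-serine replicate 1 stood apart from its group, with a chi-square per degree of freedom of 17.7 and 13.9 against its fellows, where the other replicate pairs gave 3.88 to 6.54. Its counts also fell with gene length more than those of any other library (slope of -0.0717 in log2 CPM on log2 length, where CPM is counts per 1000000 counts of the scaled library, against -0.0040 to 0.0356 in the other 5), and most of the antioxidant genes are short. Among marker genes of sympathoadrenal neuroblastoma, Hand2 had a mean of 242 CPM in the control libraries and of 256 CPM in the treated ones, whereas Th, Dbh and Ddc, which make catecholamines, averaged under 3 CPM in both groups. Of the markers shown, the neuronal tubulin Tubb3 was the 1 that passed the test, with 467, 488 and 514 CPM in control and 624, 552 and 573 CPM with D-serine (log2 fold change 0.25, edgeR adjusted p = 0.0148), and its part in the results below was not tested. Fibroblast markers summed to 4.62 to 6.90 CPM, and markers of macrophages and blood to 0.940 to 2.08 CPM. Endothelial and glial markers summed to 17.6 to 19.9 CPM.

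Of the 37 tested antioxidant genes, 2 rose with D-serine and 0 fell at an adjusted p under 0.05 (edgeR quasi-likelihood test, Benjamini-Hochberg adjustment over 13366 genes). The 2 were Gpx4 and Srxn1. Over all tested genes 9.74% were called, 4.84% as higher and 4.9% as lower, so the 2 calls among 37 members are no more than this background. At an unadjusted p under 0.05, 9 members were higher and 3 lower, where all tested genes gave 28.2% (13.8% higher and 14.4% lower), and the unadjusted counts of smaller groups below stand against this same share. DESeq2 gave 3 members higher and 1 lower, and limma-voom 2 and 0, but the shares of all genes in those fits are not given here. These counts therefore stand without a background of their own. Treated and control libraries were fully separated in 14 of the 37, 9 of them higher, beside 32.9% and 16.2% of all tested genes.

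Most changes were small. The log2 fold change was under 0.2 in size in 32 of the 37 genes. The 95% confidence interval excluded a change of 1.25-fold or more in either direction for 26 of the 37, and reached it for the other 11. These were Gpx4, Srxn1, Prdx5, Cbs, Gpx7, Gstm1, Glrx, Glrx2, Nqo1, Mgst3 (1.04) and Ggct (0.41), the last 2 both of low level. The median log2 fold change over the 37 was 0.054, with 27 positive and 10 negative values, beside a median of 0.0053 over all tested genes, of which 51.5% were positive. The offset differed between the treated libraries. The median member lay 0.13 above the control mean in D-serine replicate 1, 0.03 below it in D-serine replicate 2 (-0.030) and 0.054 above it in D-serine replicate 3, on the log2 scale. Control replicates 1 to 3 lay at -0.041, -0.011 and 0.040, so the groups overlapped in this median. The summed share of raw total counts held by the members, without the scaling used for CPM, did not overlap. It was 0.559%, 0.573% and 0.583% in control and 0.650%, 0.584% and 0.593% with D-serine (two-sided p = 0.1 by exact permutation, which is also the lowest p possible with 3 against 3). The scaling factors were 0.986 to 0.993 in control and 1.007 to 1.016 with D-serine. Applying them would make the groups overlap, so this narrow gap depends on leaving the scaling out. D-serine replicate 1 was above all 3 controls in 25 genes, D-serine replicate 2 in 10 and D-serine replicate 3 in 16. Without D-serine replicate 1 the median was 0.017.

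**Figure D1:**
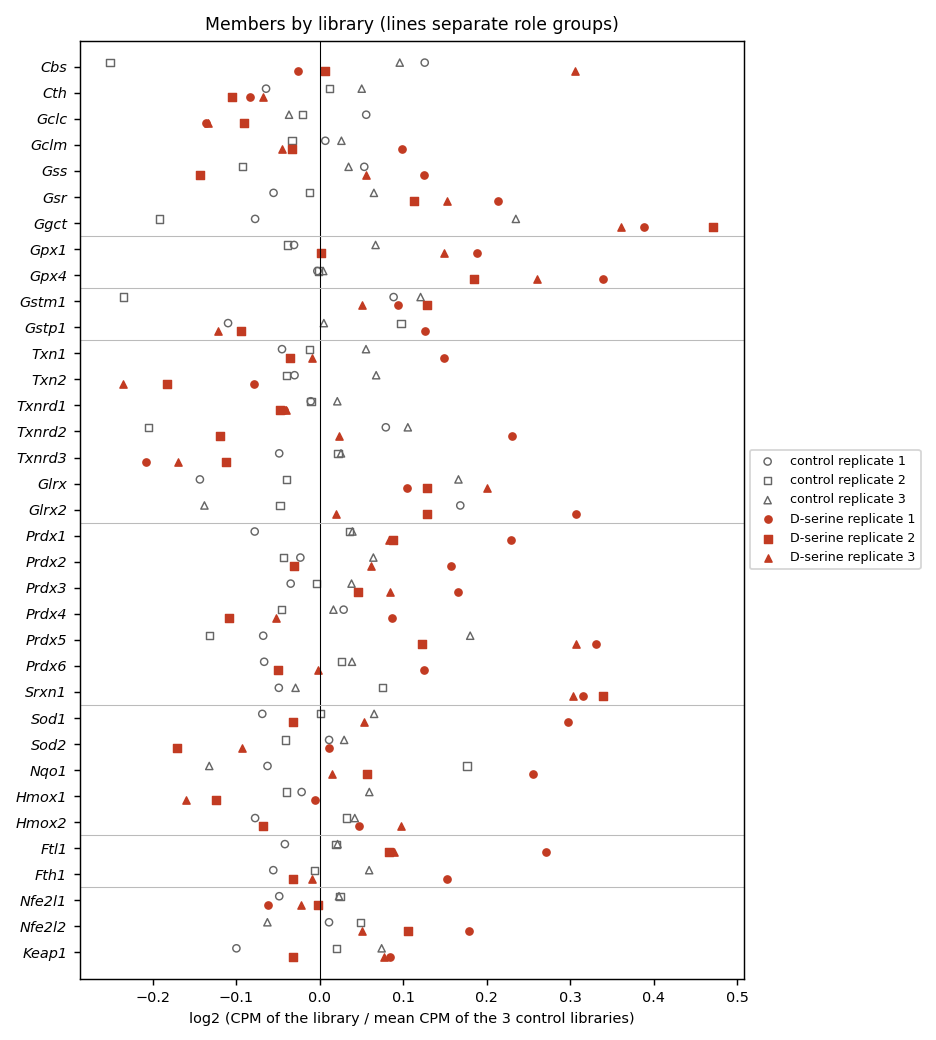
Level of 35 antioxidant genes in each library, as the log2 ratio to the mean of the 3 control libraries; grey open symbols are control and red filled symbols D-serine, with 1 symbol shape per replicate, and Gpx7 and Mgst3, both under 1 CPM, are left out. Gpx4 and Srxn1 have all 3 D-serine points clear of the controls, while D-serine replicate 1 (red circles) is the highest point in many rows, 25 of 37 tested genes being above all controls in that library.

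Gpx4 encodes the selenium-containing peroxidase that reduces lipid hydroperoxides within membranes and guards cells against ferroptosis, an iron-dependent form of cell death. Its level was 231, 231 and 232 CPM in control replicates 1 to 3 and 292, 263 and 277 CPM in D-serine replicates 1 to 3. All treated libraries were above all controls, and the controls were nearly identical. The mean rose from 231 ± 0.595 to 277 ± 14.8 CPM (SD, n = 3 each), an increase of 20.0% (log2 fold change 0.26, SE 0.046, edgeR adjusted p = 0.00913). Removing each library's trend on gene length left a log2 fold change of 0.21. Without control replicate 1 or control replicate 2 the size was the same, 0.26, but the adjusted p was 0.0551 and 0.0579. In the deposited table Gpx4 lies on chromosome 10, 79509911 to 79519184, plus strand, and 2 annotated pseudogenes match its transcript over at least 300 bases at 95% identity or more, so its counts could hold reads of those copies.

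The other glutathione peroxidases did not pass the test. Gpx1, the abundant cytosolic enzyme that reduces hydrogen peroxide, had 63.4, 63.0 and 67.8 CPM in control and 73.8, 64.8 and 71.8 CPM with D-serine (log2 fold change 0.12, adjusted p = 0.214). The groups overlapped, and with the length trend removed the difference was 0.032. Gpx7, an enzyme of the endoplasmic reticulum, was measured at 0.161 to 0.527 CPM, with an interval of -1.11 to 1.16 for its log2 fold change. Gpx8, its relative in the same compartment, had 0 counts in all 6 libraries, which allows a level of up to 0.0745 to 0.0930 CPM per library (3 counts, counting error only).

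Srxn1, sulfiredoxin, repairs peroxiredoxins whose active-site cysteine has been overoxidised by peroxide, and is a known NRF2 and AP-1 target. Control replicates 1 to 3 had 16.1, 17.5 and 16.3 CPM and D-serine replicates 1 to 3 had 20.7, 21.1 and 20.5 CPM. Here the treated libraries agreed closely with each other and all lay above the controls. The mean rose from 16.6 ± 0.775 to 20.8 ± 0.267 CPM (SD, n = 3 each), an increase of 24.7% (log2 fold change 0.32, SE 0.070, edgeR adjusted p = 0.0178). The value was 0.31 with the length trend removed. The adjusted p was above 0.05 without control replicate 1 (0.0769), control replicate 2 (0.0604), control replicate 3 (0.0612) or D-serine replicate 3 (0.0597), while the log2 fold change stayed between 0.30 and 0.36. In the deposited table the gene lies on chromosome 2, 151931260 to 151937112, plus strand.

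The 6 peroxiredoxins, the substrates of Srxn1 among them, gave 0 calls in either direction with edgeR, with 2 higher and 0 lower at an unadjusted p under 0.05. Their log2 fold changes ran from -0.02 in Prdx4 to 0.26 in Prdx5. Prdx5, found in mitochondria, peroxisomes and cytosol, had 26.7, 25.6 and 31.8 CPM in control and 35.3, 30.5 and 34.7 CPM with D-serine. Its groups overlapped, and the difference of 0.26 (adjusted p = 0.0718) was 0.17 with the length trend removed. Prdx5 passed the threshold in 5 of the 20 alternatives, DESeq2 among them, with adjusted p-values from 0.0224 to 0.435 over the 20. Prdx1, a major cytosolic peroxiredoxin, had 132, 143 and 143 CPM in control and 163, 148 and 148 CPM with D-serine (log2 fold change 0.13, adjusted p = 0.115). Prdx2, the other major cytosolic form and 1 of the 4 strongest members per kilobase, had 314, 310.0 and 334 CPM in control and 356, 313 and 333 CPM with D-serine. It overlapped between groups (log2 fold change 0.06, interval -0.05 to 0.18), and the sign was negative with the length trend removed. Prdx3 of the mitochondria (0.10), Prdx4 of the endoplasmic reticulum (-0.02) and Prdx6, which also acts on phospholipids (0.03), had adjusted p-values of 0.193, 0.820 and 0.786.

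In glutathione synthesis and recycling, 0 of 7 genes passed the test in either direction, with 2 higher and 1 lower at an unadjusted p under 0.05. The smallest p belonged to Gsr, glutathione reductase, which returns oxidised glutathione to its reduced form with NADPH. It had 72.5, 74.7 and 78.7 CPM in control and 87.3, 81.4 and 83.7 CPM with D-serine. The groups did not overlap, but the difference of 0.16 (SE 0.051) had an adjusted p of 0.0628. Gsr passed the threshold in 4 of the 20 alternatives. These were upper quartile scaling (0.0391), library totals (0.0350) and the length trend removed (log2 fold change 0.15, adjusted p = 0.0268), with the replicate block as well (0.0362). It did not pass with DESeq2, limma-voom, the replicate block alone or any 1 library left out, and the highest adjusted p was 0.22.

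The rate-limiting enzyme of glutathione synthesis is glutamate-cysteine ligase, made of the catalytic subunit Gclc and the modifier subunit Gclm, both known NRF2 targets. Gclc had 96.1, 91.2 and 90.1 CPM in control and 84.1, 86.8 and 84.3 CPM with D-serine. The treated libraries were all below the controls (log2 fold change -0.12, interval -0.22 to -0.02), and the adjusted p was 0.116. Gclm had 55.4, 53.9 and 56.1 CPM in control and 59.0, 53.9 and 53.4 CPM with D-serine, with a difference of 0.0081 and an interval of -0.11 to 0.13. Gss, which joins glycine to the dipeptide, had a difference of 0.018 with an interval of -0.20 to 0.23.

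Transsulfuration, which uses L-serine to turn homocysteine into cysteine, is carried out by Cbs and Cth. Cbs condenses serine with homocysteine and was low, with 18.4, 14.2 and 18.0 CPM in control and 16.5, 16.9 and 20.8 CPM with D-serine (log2 fold change 0.11, interval -0.13 to 0.35). Cth releases cysteine from the product and was higher in level, with 166, 175 and 180.0 CPM in control and 164, 162 and 166 CPM with D-serine. Its groups did not overlap, yet the difference was only -0.09 (adjusted p = 0.219). With the length trend removed it was -0.13 (adjusted p = 0.0223). Cth passed in 3 of the 20 alternatives, with a highest adjusted p of 0.497. Ggct, which splits gamma-glutamyl amino acids, had 2.51, 2.32 and 3.12 CPM in control and 3.47, 3.67 and 3.40 CPM with D-serine, a difference of 0.41 with a wide interval of 0.04 to 0.77 (adjusted p = 0.140).

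Of the 5 glutathione transferases, 3 were tested and 0 passed, with 1 higher and 0 lower at an unadjusted p under 0.05. Gstp1, the main transferase here, had 124, 143 and 134 CPM in control and 145, 125 and 122 CPM with D-serine, so that the groups overlapped (log2 fold change -0.03, interval -0.17 to 0.12). Its transcript matches that of Gstp2 and 1 pseudogene at 95% identity or more, and reads of these genes could be split. Gstm1 had 6.07 to 7.81 CPM over the 6 libraries. Mgst3, a membrane-bound transferase, had the smallest p of this group. Its counts were 4, 10 and 10 in control and 20, 16 and 18 with D-serine, or 0.124 to 0.270 against 0.435 to 0.510 CPM, without overlap between groups. The log2 fold change of 1.04 had an interval of 0.07 to 2.02 and an adjusted p of 0.152. Gsta4 had 6 to 16 counts per library and Mgst1 had 0 to 2, and neither was tested.

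Thioredoxins, thioredoxin reductases and glutaredoxins gave 0 calls among 7 genes, with 0 higher and 2 lower at an unadjusted p under 0.05. The smallest p belonged to Txn2, the thioredoxin of mitochondria. It had 184, 183 and 197 CPM in control and 178, 166 and 159.6 CPM with D-serine. All treated libraries were below all controls, by 10.8% on average in the fit (log2 fold change -0.16, SE 0.051, adjusted p = 0.0575). With the length trend removed its difference was -0.24 (adjusted p = 0.00045), and without D-serine replicate 1 it was -0.21 (adjusted p = 0.00216). DESeq2 gave -0.17 with an adjusted p of 0.0314, and without a filter on low counts the adjusted p was 0.0299. Txn2 passed in 8 of the 20 alternatives, but not with limma-voom, and its highest adjusted p was 0.197.

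Txn1, the cytosolic and nuclear thioredoxin, had 151, 154 and 162 CPM in control and 172, 152 and 155 CPM with D-serine (log2 fold change 0.04, interval -0.08 to 0.15). Txnrd1, the cytosolic selenoprotein reductase that recharges it and a known NRF2 target, had 382, 382 and 390.4 CPM in control and 374, 372 and 374 CPM with D-serine. These groups did not overlap, but the difference was only -0.04 (interval -0.13 to 0.04, adjusted p = 0.488). Txnrd2 of the mitochondria had 6.85 to 9.25 CPM over the 6 libraries, with overlap. Txnrd3, a reductase with an added glutaredoxin domain, had 34.1, 35.9 and 35.9 CPM in control and 30.6, 32.7 and 31.4 CPM with D-serine. The treated values were all lower, with a difference of -0.16 (adjusted p = 0.0882). Glrx and Glrx2, which reduce proteins bound to glutathione, differed by 0.14 and 0.16 with intervals that include 0.

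**Figure D2:**
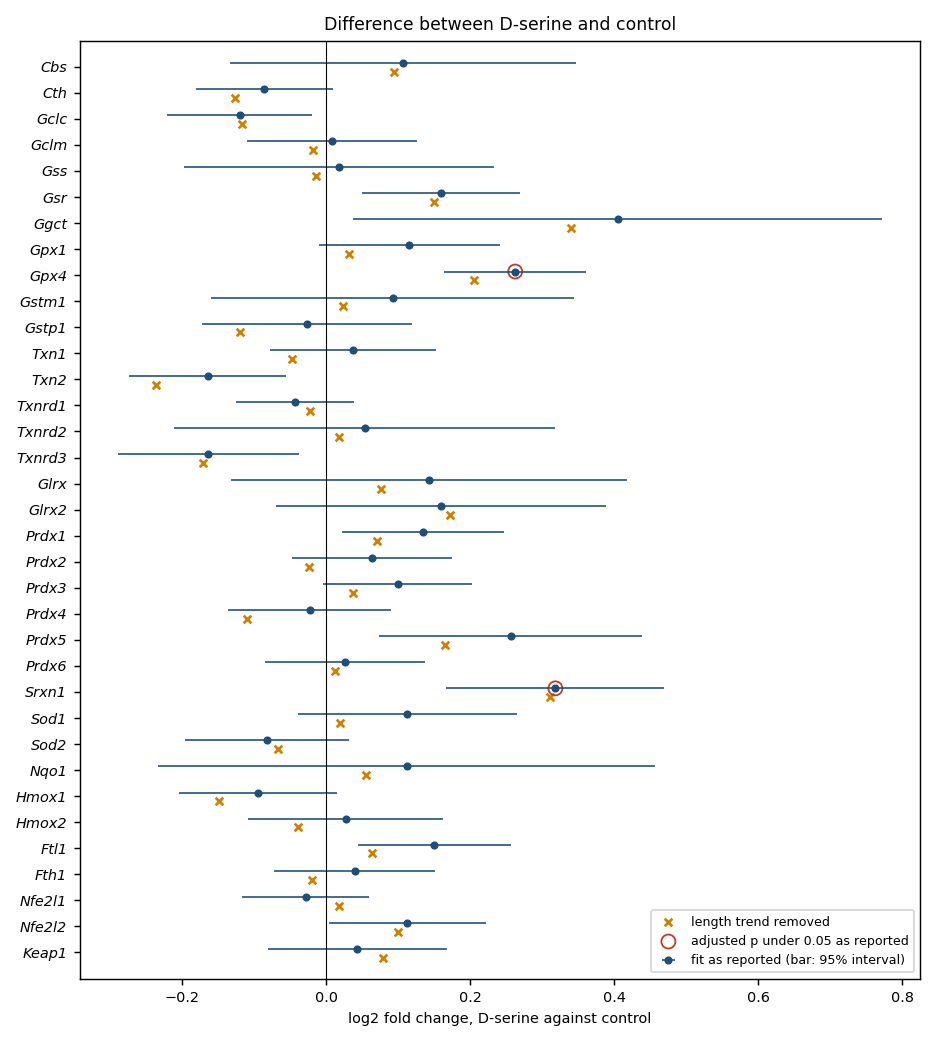
Log2 fold change of 35 antioxidant genes between D-serine and control, with 95% confidence intervals (blue) and the value with the length trend removed (orange cross); red rings mark the genes past the adjusted threshold. Gpx4 (0.26) and Srxn1 (0.32) are ringed and their crosses lie at 0.21 and 0.31, whereas the cross of Txn2 moves from -0.16 to -0.24.

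Superoxide dismutases, quinone and heme enzymes gave 0 calls among 5 genes in either direction, and 0 at an unadjusted p under 0.05. Sod1, the copper- and zinc-containing cytosolic dismutase, had 221, 232 and 243 CPM in control and 285, 227 and 240.5 CPM with D-serine. Only D-serine replicate 1 was above the controls. The difference of 0.11 (adjusted p = 0.316) was 0.019 with the length trend removed. Sod2, the manganese enzyme of mitochondria, had 96.7, 93.2 and 97.9 CPM in control and 96.7, 85.2 and 89.9 CPM with D-serine (log2 fold change -0.08, adjusted p = 0.333).

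Hmox1, the heme-degrading enzyme that responds to oxidants, metals and heme, had the smallest p of this group. It had 127, 125 and 134 CPM in control and 128, 118 and 115 CPM with D-serine, a difference of -0.09 with an interval of -0.20 to 0.02. The adjusted p was 0.242, but 0.0312 without D-serine replicate 1 (-0.14) and 0.0125 with the length trend removed (-0.15). Hmox1 passed in 6 of the 20 alternatives, with a highest adjusted p of 0.548. Nqo1, a quinone reductase often used as a readout of NRF2, had 3.13, 3.69 and 2.98 CPM in control and 3.90, 3.40 and 3.30 CPM with D-serine. The groups overlapped, and its interval of -0.23 to 0.46 is wide because the level is low. Hmox2, the constitutive heme oxygenase, had a difference of 0.03 (interval -0.11 to 0.16), and 399 of its exonic bases are shared with Cdip1 on the opposite strand.

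The ferritin subunits were the most abundant members. Ftl1, the light chain, had 1491, 1555 and 1557 CPM in control and 1852, 1625 and 1632 CPM with D-serine. All treated libraries were higher, with D-serine replicate 1 well above the others (log2 fold change 0.15, SE 0.049, adjusted p = 0.0701). With the length trend removed the difference was 0.063. It passed the threshold with library totals (0.0419), without a filter on low counts (0.0146), with a GC trend removed (0.0459) and without D-serine replicate 2 (0.0415). These were 4 of the 20 alternatives, and the highest adjusted p over the 20 was 0.527. Ftl1 transcripts match those of 7 other annotated genes, 4 of them pseudogenes, at 95% identity or more, so its counts are uncertain. Fth1, the heavy chain with ferroxidase activity, had 549, 569 and 595 CPM in control and 635, 559 and 568 CPM with D-serine, with overlap (log2 fold change 0.04, interval -0.07 to 0.15) and a sign that was negative without D-serine replicate 1 and with the length trend removed.

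Among the regulators, 0 of 3 passed in either direction, with 1 higher and 0 lower at an unadjusted p under 0.05. Nfe2l2, which encodes NRF2, had 93.0, 95.5 and 88.4 CPM in control and 104, 99.3 and 95.6 CPM with D-serine. The groups were separated by a narrow gap (log2 fold change 0.11, SE 0.051, adjusted p = 0.166). Nfe2l1, which encodes the related factor NRF1, was the more abundant per kilobase, at 362, 381 and 380.3 CPM in control and 359, 374 and 369 CPM with D-serine (interval -0.12 to 0.06). Keap1 had 59.5, 64.6 and 67.1 CPM in control and 67.5, 62.3 and 67.2 CPM with D-serine (interval -0.08 to 0.17). NRF2 is controlled mainly through its protein, which these data do not measure.

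Levels of different members were compared as CPM per kilobase of exon, averaged over the 6 libraries. Ftl1 was highest at 1669, followed by Fth1 at 383, Sod1 at 372 and Prdx2 at 347. The last 3 overlapped in their ranges over the libraries. Gpx4 (166), Prdx4 (167) and Gstp1 (178) came next, again with overlapping ranges, with Txn1 (150.0) and Txn2 (139) after them, whose ranges overlapped that of Gpx4. Members of a family differed widely. Sod1 stood at 372 against 24.4 for Sod2, Txnrd1 at 94.3 against 11.8 for Txnrd3 and 4.22 for Txnrd2, and Gpx4 at 166 against 64.5 for Gpx1. Gclc (25.9) and Gclm (26.7), the partners of 1 enzyme, were at nearly equal levels. Cth at 93.7 was far above Cbs at 6.98. Srxn1, at 6.65, was low, below each of the 6 peroxiredoxins, which ranged from 44.7 (Prdx5) to 347. The median over all tested genes was 9.86.

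**Figure D3:**
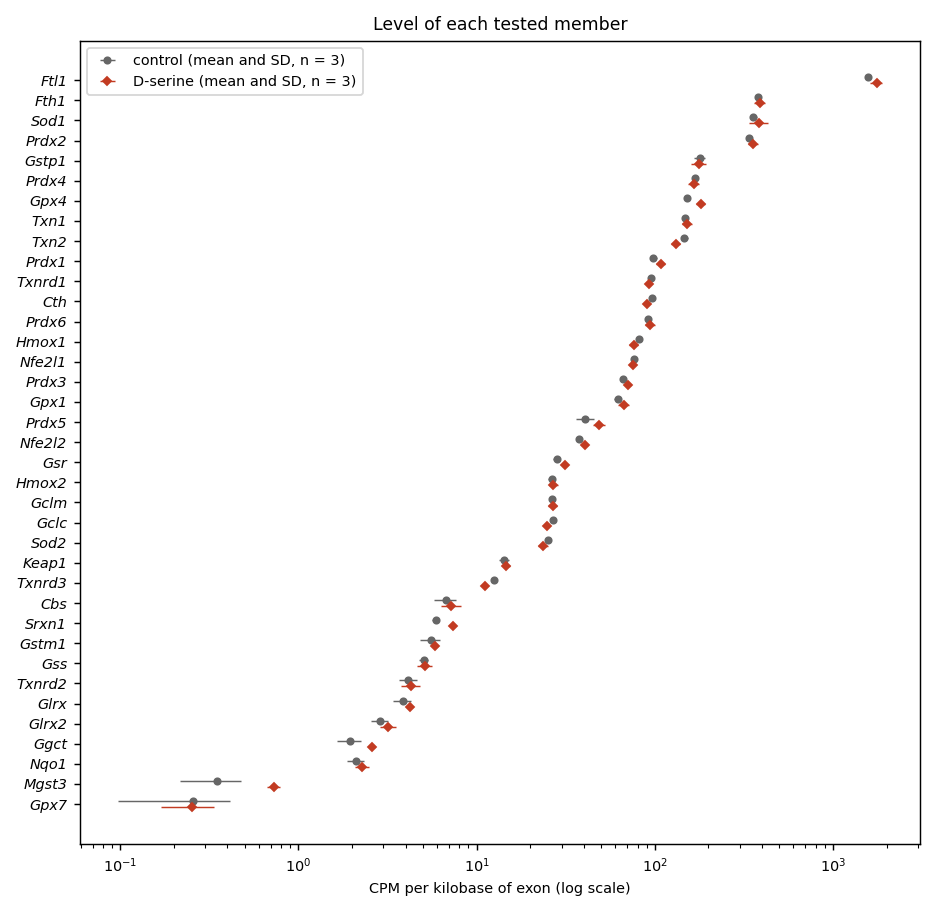
Mean level and SD (n = 3 each) of the 37 tested members in CPM per kilobase of exon, on a log scale, for control (grey circles) and D-serine (red diamonds). The levels run from Ftl1 at 1669 to Gpx7 at 0.255, averaged over both groups, and the 2 groups lie close together except in Mgst3, which is under 1 CPM.

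The members were shorter than most genes, with a median exonic length of 1534 bases against 2834.5 bases over all tested genes, and 20 of the 37 fell in the shortest quintile (up to 1569 bases). In that quintile the median log2 fold change of all genes was 0.084, beside 0.105 for the 20 members in it. In the longest quintile it was -0.084. With each library's length trend removed, the median over the 37 members was 0.018, beside 0.0040 over all genes, and 21 of the 37 were positive, beside 51.2% of all genes. In that fit 15.3% of all genes were called. Gpx4, Srxn1 and Gsr, 3 members, passed as higher, against 7.65% of all genes. As lower, 5 members passed against 7.63%, namely Txn2, Hmox1, Cth, Txnrd3 and Prdx4. Of the 6 libraries, D-serine replicate 1 had the steepest slope on length.

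**Figure D4:**
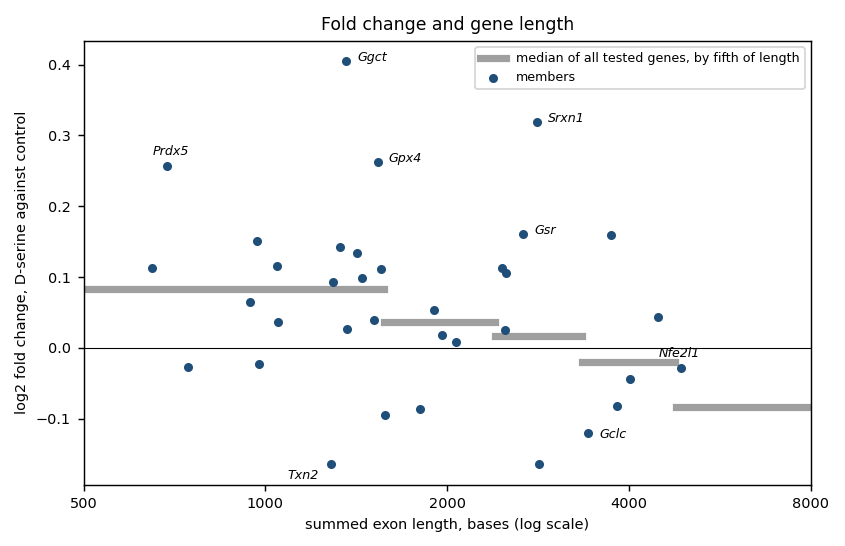
Log2 fold change of 35 members (blue points) against summed exonic length on a log scale, with the median of all tested genes in each quintile of length (grey bars, cut at the edges of the axis). The bars fall from 0.084 in the shortest to -0.084 in the longest quintile, and Gpx4 and Srxn1 lie above the bar of their own length.

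Promoter windows from RefSeq (GRCm38.p6), which reach from 250 bases before to 50 after each annotated start, were searched on both strands for the core of the antioxidant response element bound by NRF2, TGACNNNGC, for its form with G in place of C, TGAGNNNGC, and for the core of the amino acid response element bound by ATF4, TGATGNAA. Windows were given for 32 of the 37 tested members, and not for Cth, Gclc, Gsr, Prdx6 and Hmox1. The antioxidant core was present for 7 of the 32 members (21.9%), beside 17.1% of tested genes with a window. The form with G was present for 6 of the 32 (18.8%), beside 22.8%. Either form was present for 11 of the 32 (34.4%), beside 35.5%, so the members with a window were close to all genes in these windows. Sequence further from the start was not searched. The amino acid core was present for 0 of the 32, beside 2.84%. The matches to TGACNNNGC are shown because several belong to textbook NRF2 targets that did not pass the test here. Each is printed 5′ to 3′ on the strand where it reads as the searched letters, with 10 flanking bases on each side and the match in capitals.
Gclm, chr3:122245413-122245441, minus strand: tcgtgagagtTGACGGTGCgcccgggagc
Ggct, chr6:54993023-54993051, plus strand: tcccgcccacTGACGTCGCttttctattg
Ggct, chr6:54992844-54992872, minus strand: tctctgtgctTGACGCTGCtggcgtggat
Txnrd1, chr10:82859104-82859132, minus strand: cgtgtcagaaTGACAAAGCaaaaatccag
Prdx1, chr4:116685456-116685484, minus strand: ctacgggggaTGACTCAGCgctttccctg
Srxn1, chr2:152105542-152105570, minus strand: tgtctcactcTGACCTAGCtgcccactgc
Sod1, chr16:90220696-90220724, minus strand: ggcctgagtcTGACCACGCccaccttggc
Nfe2l2, chr2:75704885-75704913, minus strand: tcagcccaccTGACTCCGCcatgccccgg
Of these 7 genes only Srxn1 passed the test, and its match lies after the start site, from base 29 to base 37. In none of the 4 windows of Gpx4 was either form found. The 250 bases before the start of Srxn1, the member with the larger called change, are given because they hold 2 matches to TGAGNNNGC, in capitals, from base -158 to -150 (on the minus strand, so printed as its reverse complement) and from base -45 to -37.
Srxn1, chr2:152105274-152105523, plus strand: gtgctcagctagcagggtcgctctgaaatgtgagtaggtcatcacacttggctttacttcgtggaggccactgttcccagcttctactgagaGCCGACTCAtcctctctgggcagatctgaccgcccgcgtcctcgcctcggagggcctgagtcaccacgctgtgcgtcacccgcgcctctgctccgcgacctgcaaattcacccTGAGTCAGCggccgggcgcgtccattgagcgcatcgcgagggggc

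The wider pathway was read from 104 further genes listed by role, of which 89 were tested. In this list 6 rose and 4 fell, or 10 of 89, beside 9.74% of all tested genes (4.84% higher and 4.9% lower). The list was chosen with earlier results of these data known, so its share is a description and no independent test. After removal of the length trend, 6 were higher and 6 lower, where Txndc9 was called as higher and Blvrb and Glrx5 as lower, while Park7 was not called. In cystine uptake and sulfur metabolism, 2 of 8 fell and 0 rose. They encode the 2 subunits of the cystine-glutamate exchanger. Slc7a11, its transport subunit, had 248, 254 and 243 CPM in control and 171, 216 and 208 CPM with D-serine, without overlap and with D-serine replicate 1 lowest (log2 fold change -0.32, SE 0.070, edgeR adjusted p = 0.0162). Its value after removal of the length trend was -0.20. Its adjusted p was above 0.05 without control replicate 1 or control replicate 2, with a highest value of 0.0751. Slc3a2, the heavy chain shared with other amino acid exchangers, had 1116, 1142 and 1174 CPM in control and 997, 951 and 937 CPM with D-serine, again without overlap (-0.25, SE 0.040, adjusted p = 0.00600), and its adjusted p was 0.0501 without control replicate 2. Part of the annotated Slc7a11 transcript matches 9 other annotated genes at 95% identity or more, tubulin genes among them, so its counts could hold reads of those.

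In the role group of thioredoxin-fold and methionine sulfoxide reductase genes, 1 of 14 rose and 0 fell. The riser was Txnip, which was listed there but is an alpha-arrestin that binds and inhibits thioredoxin, without the thioredoxin fold. It had 116, 117 and 108 CPM in control and 160.3, 146 and 148 CPM with D-serine, all treated libraries being higher. The increase was 33.1% (log2 fold change 0.41, SE 0.051, edgeR adjusted p = 0.00180). Each of the 20 alternatives kept it past the threshold, the largest adjusted p being 0.0179. Txnip shares 606 exonic bases with Gm15441 on the opposite strand, so part of its count is uncertain. Of the thioredoxins, Txn1 passed in 0 of the 20 alternatives and Txn2, lower with D-serine, in 8.

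Among the other glutathione peroxidases and transferases, 2 of 14 rose and 0 fell. Gstt2, a theta-class transferase, had 1.24, 1.24 and 1.02 CPM in control and 2.58, 2.50 and 1.99 CPM with D-serine (1.01 on the log2 scale, SE 0.23, adjusted p = 0.0191). Gstm4, of the mu class, had 5.14, 4.12 and 4.54 CPM in control and 6.45, 6.12 and 7.30 CPM with D-serine (0.53, adjusted p = 0.0272). Both were separated between groups, and both lost their call when any 1 of the control libraries was left out, where the adjusted p reached up to 0.0655 for Gstt2 and 0.116 for Gstm4. Gstm4 also lost it without D-serine replicate 3.

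Of the 9 NADPH-supplying enzymes, 1 rose and 1 fell. Idh1, the cytosolic isocitrate dehydrogenase, had 20.1, 21.9 and 20.2 CPM in control and 26.7, 24.5 and 25.5 CPM with D-serine (0.30 on the log2 scale, edgeR adjusted p = 0.0197). Me1, the cytosolic malic enzyme and a known NRF2 target, had 153, 147 and 151 CPM in control and 139, 131 and 135 CPM with D-serine (-0.15, adjusted p = 0.0425). With upper quartile scaling or library totals, Me1 missed the threshold. Of the 5 other antioxidant enzymes, Park7, which encodes the redox-sensitive protein DJ-1, rose (0.26, adjusted p = 0.0478), and with the length trend removed its adjusted p was 0.0505. Of the 11 selenoprotein genes, Sephs2, which makes the selenium donor for selenoproteins such as Gpx4, rose by 12.3% (0.17, adjusted p = 0.0443) and did not pass with D-serine replicate 1 left out.

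Of 11 NRF2 partners and other known targets, 1 fell and 0 rose. Cul3, the scaffold of the ubiquitin ligase through which KEAP1 acts on NRF2, had 189.9, 184 and 189.7 CPM in control and 165, 167 and 169.6 CPM with D-serine, without overlap (log2 fold change -0.17, SE 0.041, edgeR adjusted p = 0.0257). With upper quartile scaling Cul3 missed the threshold. Idh1, Me1, Cul3, Park7 and Sephs2 each lost their call without control replicate 1, control replicate 2 or D-serine replicate 3, and all but Park7 also without control replicate 3. Me1 lost it without D-serine replicate 2 too. The largest adjusted p of these 5 genes in any alternative lay between 0.0820 (Idh1) and 0.175 (Park7). With edgeR, heme breakdown and iron handling gave 0 calls among 10 genes, with 0 higher and 2 lower at an unadjusted p under 0.05. In that group Blvrb, biliverdin reductase B, had an adjusted p of 0.00391 with the length trend removed. Tfrc, the transferrin receptor, had an adjusted p of 0.0490 with the GC trend removed, an alternative chosen after seeing the data. The share of all genes called in that fit is not given here. Glutathione breakdown and glyoxalase gave 0 calls among 7, with 1 higher and 0 lower at an unadjusted p under 0.05.

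**Figure D5:**
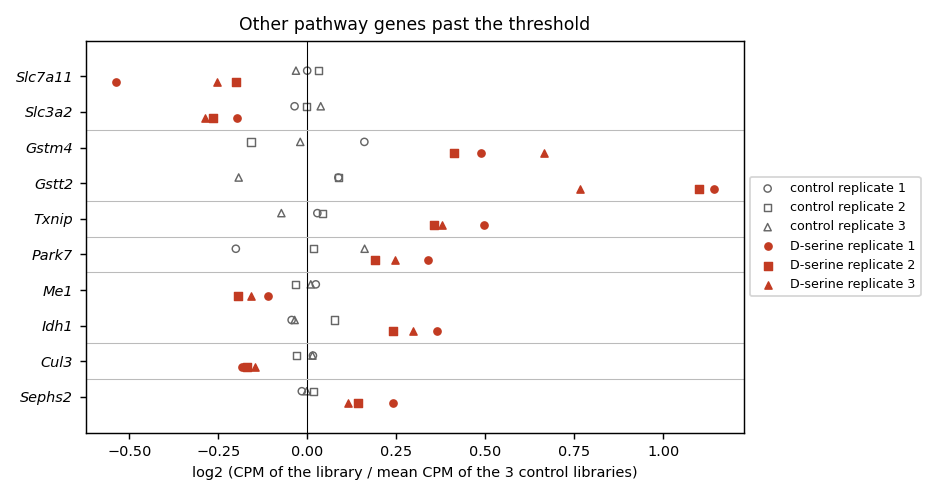
Level of the 10 further pathway genes past the threshold in each library, as the log2 ratio to the mean of the 3 control libraries (symbols as for the members by library). All 3 D-serine points lie on 1 side of the controls in each row, with Slc7a11 and Slc3a2 lower and Txnip and Gstt2 higher. The genes were picked by the test on these same libraries, so this separation is no separate support.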

How the data were processed

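The deposited table holds whole-number read counts for each gene and library, with summed exon length, in featureCounts columns per the file headers. The tools and builds named by the submitters' processing notes are bcl2fastq, Trim Galore, HISAT2, featureCounts, Subread, DESeq2, GRCm38 and mm10. Strand and multi-mapping settings are not given in the sources used here. Of 23128 genes with 1 position in both, 1145 start within 1000 bases of RefSeq GRCm38.p6, so coordinates are as deposited, from an unnamed build. Genes were filtered by filterByExpr, scaled with TMM, a trimmed mean of log ratios, and tested with edgeR 4.0.16 in R 4.3.3 with no covariate, two-sided, at 0.05. DESeq2 1.42.0 and limma 3.58.1 were alternatives. CPM uses TMM-scaled library sizes. SE is the log2 fold change over the square root of F, and intervals are 95%. The length trend is a natural spline with 5 degrees of freedom per library, set to a mean of 0 and entered as an offset. Similar transcripts were found with blastn 2.17.0 in GENCODE M21. By the same search Prdx1 matched 2 pseudogenes, Prdx2, Sod1, Txn1 and Gstm1 matched 1 each, and Prdx5 matched Trmt112. The counts of these members could also hold reads of those genes. The code was tested on simulated data. Members and lists were chosen with earlier results of these data known. Named by rule were called members, the smallest p of each role group, the 4 highest per kilobase, and called pathway genes. Other members are given as well. Total depth did not differ detectably between groups (exact two-sided permutation p = 0.4, smallest possible 0.1). Some marker genes are not reported here. The search for TGAGNNNGC was added after the other promoter matches had been seen.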

Additional observations from a re-analysis of the deposited data

How the results depend on the processing

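The GC trend and the combinations with the length trend, 4 of the 20 alternatives, were chosen after seeing the data, and causes were not tested except where stated. Over the 6 fits that each left out 1 library, the genes past the threshold ran from 68 (without control replicate 2) to 1699 (without D-serine replicate 1), the members higher from 0 to 4, the members lower from 0 to 2 and the median log2 fold change of the members from 0.017 to 0.10. The members higher were 0 without control replicate 1 or control replicate 2 and 1 without D-serine replicate 3. Against 1302 genes as reported, leaving out control replicate 1 gave 125, leaving out control replicate 3 gave 453 and leaving out D-serine replicate 3 gave 291. Upper quartile scaling and library totals turned the split of all genes to 914 and 944 higher. Library totals gave 5 members higher, no filter on low counts gave 4 higher and 1 lower, and DESeq2 gave 1 lower. Member counts printed without the number of all genes passing in the same fit were not set against a background. With the length trend removed, 2043 genes passed and 5 members were lower, with the block as well 4, without D-serine replicate 1 as well 4, and without control replicate 2 as well 2 with a median of -0.019. With the trend not centred, 2118 genes passed, 7 members were lower and the median was -0.0080. The replicate block left 298 genes and 1 member higher, since Srxn1 had an adjusted p of 0.0519. Same-numbered libraries did not deviate together (correlations -0.0687, 0.0197 and -0.0187), so the block is given only here and for Gsr. With the length trend removed, 8 of the 37 members changed sign (Gclm, Gss, Gpx7, Txn1, Prdx2, Hmox2, Fth1 and Nfe2l1). Of the members described by the rule for named genes, signs reversed in Prdx2 and Fth1 with the length trend removed (-0.023 and -0.019), with the block as well (-0.023 and -0.020), with D-serine replicate 1 left out as well (-0.037 and -0.052), with control replicate 2 left out as well (-0.043 and -0.021) and with the trend not centred (-0.050 and -0.0455), in Fth1 without D-serine replicate 1 (-0.020, with 0.0745 as the highest value when 1 library was left out), and in Sod1 without D-serine replicate 1 and the length trend (-0.043) and with the trend not centred (-0.0070). None of these was called. Counting depth limits Gpx7, Mgst3, Gsta4, Mgst1 and Gpx8.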
